A study of Danio rerio with 4 samples.

Results

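Late osteoblasts are the cells that lay down and mineralize bone, and 282 of 21311 cells of the zebrafish calvaria were counted as such here. UMIs are the molecular tags by which captured RNA molecules are counted. Cells entered with a number of detected genes above 200 and below 2500 and a mitochondrial share of UMIs below 25%. A kept cell was a member when it had at least 1 UMI of *ifitm5*, at least 1 UMI of any of 5 companion genes (*sp7*, *panx3*, *phex*, *bglapl* and *col10a1a*) and fewer than 2 UMIs of *mmp13b*. The members were therefore chosen on measured values, and the levels of these 7 genes describe the choice and are no result.

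The dissected skull roofs came from fish of the Tübingen strain in 4 droplet libraries, 2 juvenile and 2 adult, each a pool of fish sorted for live (DAPI-negative) cells. Juvenile replicate 1 (20 fish of 9–11 mm standard length, when the bone fronts still grow) and adult replicate 1 (10 fish of 22–25 mm, when sutures are established) were depleted of cells with the ecadYFP reporter, which marks epithelium. Juvenile replicate 2 (20 fish of 9–11 mm) was depleted of sp7:GFP cells, a reporter of the osteoblast lineage, and adult replicate 2 (10 fish of 22–25 mm) had no reporter gate. Because a library pools its fish, the spread between animals was not measured, and the replicate numbers only name the libraries.

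An osteoblast matures from a mesenchymal precursor under the transcription factors Runx2 and Sp7, secretes a matrix dominated by type I collagen, and then mineralizes it. Matrix proteins such as osteocalcin bind the mineral, while phosphatases and the endopeptidase Phex act on phosphate and on inhibitors of mineralization. The bones of the skull roof form largely by direct (intramembranous) ossification, without a cartilage model. In teleost fish, type X collagen is made by osteoblasts as well as by hypertrophic cartilage.

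The 4 libraries held 8384, 8083, 2108 and 3070 barcodes (juvenile 1 and 2, adult 1 and 2), of which 8313, 7932, 2072 and 2994 were kept, with between 6860615 and 23504027 UMIs in the kept cells of a library. Between 14 and 101 barcodes occurred in both libraries of a pair, and the smaller library held 2108 or more. Late osteoblasts numbered 80 in juvenile replicate 1, 0 in juvenile replicate 2, 68 in adult replicate 1 and 134 in adult replicate 2. They were deep cells, with a median of 5096.5, 4287 and 4345 UMIs in the 3 libraries that held them, where the kept cells had 1878, 2815 and 1928.5. The member cells summed to 469254, 319232 and 703815 UMIs, and a level below is the UMIs of a gene per 1000000 of these (CPM) in 1 library.

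At the threshold of the rule, *ifitm5* stood at exactly 1 UMI in 19, 10 and 18 of the members of juvenile replicate 1, adult replicate 1 and adult replicate 2. A further 38, 13 and 18 cells had *ifitm5* but no companion gene, with a median of 1 UMI of *ifitm5*, and 3, 0 and 11 cells had both but 2 or more UMIs of *mmp13b*. Another 6, 5 and 2 cells had no *ifitm5* but at least 3 of the companion genes. Immune cells, which should lack these transcripts, had a UMI of *ifitm5* in 0.768% of 1562 cells in juvenile replicate 1 and 1.23% of 244 cells in adult replicate 1, at a median depth of 2830 and 2329 UMIs. Of the 1562 cells 4 were members, which have *ifitm5* by the rule. In the same immune cells *col10a1a* was found in 5.51% and 6.56%. How many members with 1 UMI of each gene hold stray RNA was not tested.

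Of the markers of the label, the rule genes cannot serve as a check, since they chose the cells. *col10a1a* was present in 275 of 282 members and was the only companion gene in 41 of them. *bglapl*, an osteocalcin-like gene of mature osteoblasts, had a UMI in 38 of 80, 36 of 68 and 70 of 134 members. Cells without it were shallower (median 3310, 2759 and 3252 UMIs against 7990, 5042 and 5924). *sp7*, which encodes the transcription factor Osterix, had a UMI in 11, 17 and 32 members. Of the earlier markers, *spp1* (osteopontin) was found in 199 of 282, *prrx1a* in 45 and *mmp9* in 22. *bglap* (osteocalcin), which the rule did not use, was found in 182 of 282. The rule therefore takes in osteoblasts with and without detected *bglapl*, and "late osteoblasts" is used here for all of them. The paper separates early from late osteoblasts by *bglapl*, so members without it may include cells that it would call early.

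*ifitm5*, a small membrane protein of bone-forming cells, stood at 1447, 1739 and 2046 CPM in the members of juvenile replicate 1, adult replicate 1 and adult replicate 2, and at 2.42, 1.99 and 7.25 CPM in the remaining cells. *panx3*, a pannexin channel, stood at 215, 169 and 152 CPM, and *phex* at 1004, 407 and 357 CPM. *bglapl* reached 13000, 10740 and 6765 CPM, and *col10a1a* 24820, 24460 and 17900 CPM. *sp7* was low in all 3 (40.5, 59.5 and 55.4 CPM). *mmp13b*, a collagenase of pre-osteoblasts, was kept low by the rule at 2.13, 0 and 2.84 CPM.

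Beyond the rule genes, the members shared a set of matrix, mineral and signalling genes. They were ranked by the smallest ratio, over the 3 libraries, of the level in late osteoblasts to that in the remaining cells, and the first 25 are described with no test because the cells were chosen on related genes. Their smallest ratios ran from 222.7 for *si:dkey-32e6.6* to 9.96 for *emid1*. The remaining cells are of many types, so the ratios do not set late osteoblasts apart from pre-osteoblasts (2 or more UMIs of *mmp13b*, with *spp1*). There *emid1* stood at 603 CPM in juvenile replicate 1 and 680 CPM in adult replicate 2, above the 388 and 575 CPM of the members. It was the only one of the 25 above the members there, while *loxl4* came near in juvenile replicate 1 (122 against 166 CPM). *bglap* (osteocalcin) stood at 763, 5861 and 23470 CPM, against 1.52, 49.7 and 105 CPM in the remaining cells of the same libraries. *col10a1b*, the second type X collagen gene, stood at 2986, 22150 and 25120 CPM against 28.8, 20.3 and 253 CPM. Both were far above the remaining cells in each library, and both were lowest in the juvenile one.

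**Figure D1:**
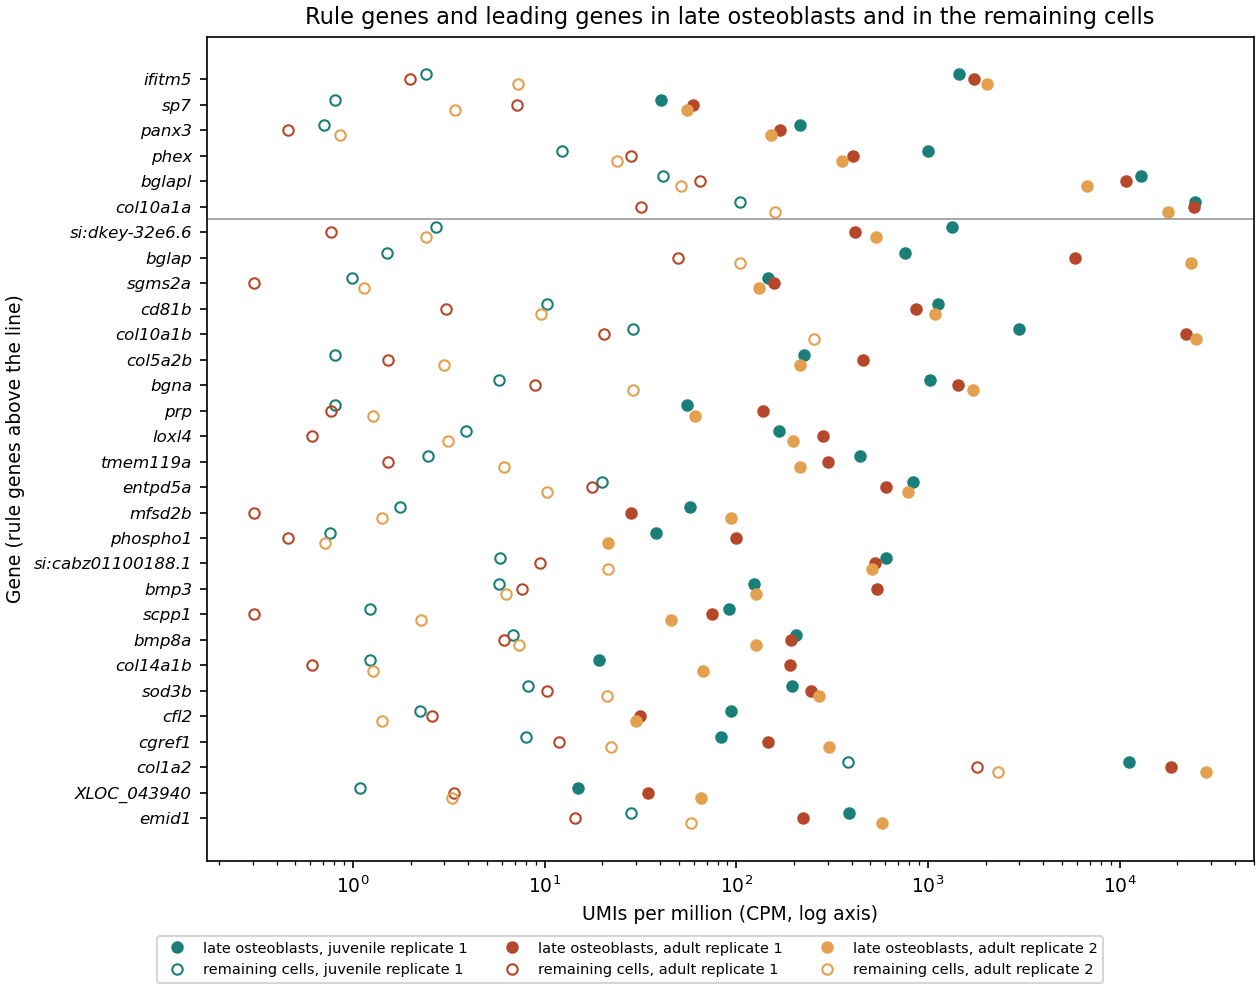
Level (CPM, log axis) of 6 rule genes (above the line) and 24 of the leading genes in the late osteoblasts (filled) and in the remaining kept cells (open) of 3 libraries, 1 point per library. Every filled point lies to the right of the open point of its library, and *bglap* and *col10a1b* have their lowest filled points in juvenile replicate 1.

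Several of the leading genes act on the matrix. *col1a2*, a chain of type I collagen, stood at 11250, 18600 and 28300 CPM in late osteoblasts. *bgna*, a biglycan, stood at 1023, 1444 and 1712 CPM, and *col5a2b*, a type V collagen chain, at 226, 457 and 216 CPM. *loxl4*, of the lysyl oxidase family that crosslinks collagen, stood at 166, 282 and 198 CPM. *col14a1b*, *emid1*, *sod3b* (an extracellular superoxide dismutase) and *scpp1* (of the family of secreted calcium-binding phosphoproteins) belong here too.

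Others act on phosphate, lipid or signalling. *entpd5a*, an ectonucleotidase required for bone mineralization in zebrafish, stood at 838, 605 and 791 CPM in late osteoblasts and between 10.2 and 20.0 CPM in the remaining cells. *phospho1*, a phosphatase of matrix mineralization, stood at 38.4, 100.2 and 21.3 CPM and was below 1 CPM in the remaining cells. *sgms2a*, a sphingomyelin synthase, stood at 147, 157 and 131 CPM. The secreted factors were *bmp8a* at 205, 194 and 127 CPM and *bmp3*, known in mouse as a negative regulator of bone density, at 124, 542 and 127 CPM. Further leading genes were *cd81b*, *tmem119a*, *prp*, *mfsd2b*, *si:cabz01100188.1*, *cfl2*, *cgref1* and *XLOC_043940*.

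Collagen took a large part of the RNA of these cells. The type I collagen genes held 3.07%, 4.75% and 6.50% of all UMIs of the members (juvenile replicate 1, adult replicate 1, adult replicate 2), where mesenchyme (cells with *prrx1a* and *col1a2*) had 0.485%, 0.765% and 0.561%. Type X collagen held 2.78%, 4.66% and 4.30%. *sparc* (osteonectin), a collagen-binding matrix protein, held 1.30%, 2.08% and 1.83%. *bglap* held 0.0763%, 0.586% and 2.35%, and *bglapl* 1.30%, 1.07% and 0.677%. The share of *bglap* was thus lowest in the juvenile library, and that of *bglapl* was highest there. Of the 14 bone collagen genes all had UMIs in the members, among them *col1a1a* (11000, 14070 and 18980 CPM), *col1a1b* (8477, 14780 and 17720 CPM) and *col11a2* (872, 1453 and 1409 CPM). Among all 39988 genes 16547 had UMIs in the members, so such counts alone do not mark these cells.

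The machinery that folds and exports collagen was present in all 3 libraries. *serpinh1b* (Hsp47), a chaperone of procollagen, stood at 226, 1488 and 1037 CPM. *ppib*, a prolyl isomerase of the endoplasmic reticulum, stood at 1070, 1215 and 1428 CPM, *pcolceb*, an enhancer of procollagen C-proteinase, at 575, 1168 and 1299 CPM, and *p4ha1b*, a prolyl hydroxylase subunit, at 209, 320 and 199 CPM. *xbp1*, a transcription factor of the secretory pathway, stood at 526, 1137 and 575 CPM. Of 34 collagen-processing genes measured, 33 had UMIs in the members, and of 42 secretory genes all 42 did, where 16547 of all 39988 genes did. Summed, the secretory genes stood at 5083, 6741 and 6193 CPM in members and at 3868, 5643 and 4316 CPM in the remaining cells. The collagen-processing genes stood at 3542, 6469 and 5625 CPM against 1239, 2598 and 2144 CPM.

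Of the 30 measured genes of osteoclast coupling and osteocytes, 25 had UMIs in the members, with a summed level of 1296, 2017 and 1121 CPM. The remaining cells of the same libraries had 572, 3175 and 2744 CPM, above the members in both adult libraries. *tnfsf11* (RANKL), the cytokine that drives osteoclast formation, had 1 UMI in the members of all libraries together, and its decoy receptor *tnfrsf11b* (osteoprotegerin) had 1, 0 and 9. *tnfrsf11a*, the receptor of RANKL known from osteoclasts, had 76, 49 and 89 UMIs in 34, 28 and 53 members, and *ctsk*, the collagen-degrading cathepsin K of osteoclasts, had 31, 39 and 78 UMIs in 23, 25 and 52 members. Of the 7 osteoclast markers measured 4 had UMIs (summed 294, 351 and 259 CPM), with *acp5a* at 2 UMIs over all members and *acp5b*, *ocstamp* and *siglec15l* at 0. *alpl*, a tissue-nonspecific alkaline phosphatase gene, had 1, 1 and 0 UMIs. *sost* (sclerostin), which in mammals marks osteocytes, had 8, 34 and 18 UMIs, and *fgf23* had 7, 1 and 0.

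The transcription factors of the lineage were low. *runx2b* had a UMI in 19, 17 and 23 members and *runx2a* 6 UMIs over all 282 cells. *twist1a* stood at 188, 122 and 269 CPM, *dlx3b* at 213, 53.3 and 105 CPM, *dlx5a* at 70.32, 160 and 34.1 CPM and *mef2cb* at 126, 191 and 129 CPM. Of 32 such genes 26 had UMIs in the members. Their summed level was 1370, 1222 and 972 CPM in members and 973, 1230 and 1368 CPM in the remaining cells.

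Late osteoblasts differed widely from cell to cell in their osteocalcins. *bglap* had a UMI in 28 of 80 members (35.0%) of juvenile replicate 1, 59 of 68 (86.8%) of adult replicate 1 and 95 of 134 (70.9%) of adult replicate 2. After each cell was thinned to 1000 UMIs, leaving out shallower cells, the shares were 22.4%, 74.2% and 64.8%. Immune cells, with 4 members among those of juvenile replicate 1, had *bglap* in 0.192% and 0.410% of cells in juvenile replicate 1 and adult replicate 1. *bglapl*, in contrast, had near-equal shares (47.5%, 52.9% and 52.2%, or 39.5%, 41.9% and 39.3% after thinning). Per 10000 UMIs of a cell, the median of *bglap* was 0, 30.2 and 56.1 and its maximum 58.4, 212 and 1667, while *bglapl* had a maximum of 800, 1017 and 754.

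In juvenile replicate 1, 23 members had both, 15 had *bglapl* alone, 5 had *bglap* alone and 37 (46.3%) had neither. In adult replicate 1, 34 had both, 2 had *bglapl* alone, 25 had *bglap* alone and 7 (10.3%) had neither. In adult replicate 2, 60 had both, 10 had *bglapl* alone, 35 had *bglap* alone and 29 (21.6%) had neither. *bglapl* is one of the genes that admit a cell, so these states are in part fixed by the rule and are given as a description. *col10a1b* was likewise found in the smallest share of members in the juvenile library, in 28 of 80, 56 of 68 and 122 of 134.

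**Figure D2:**
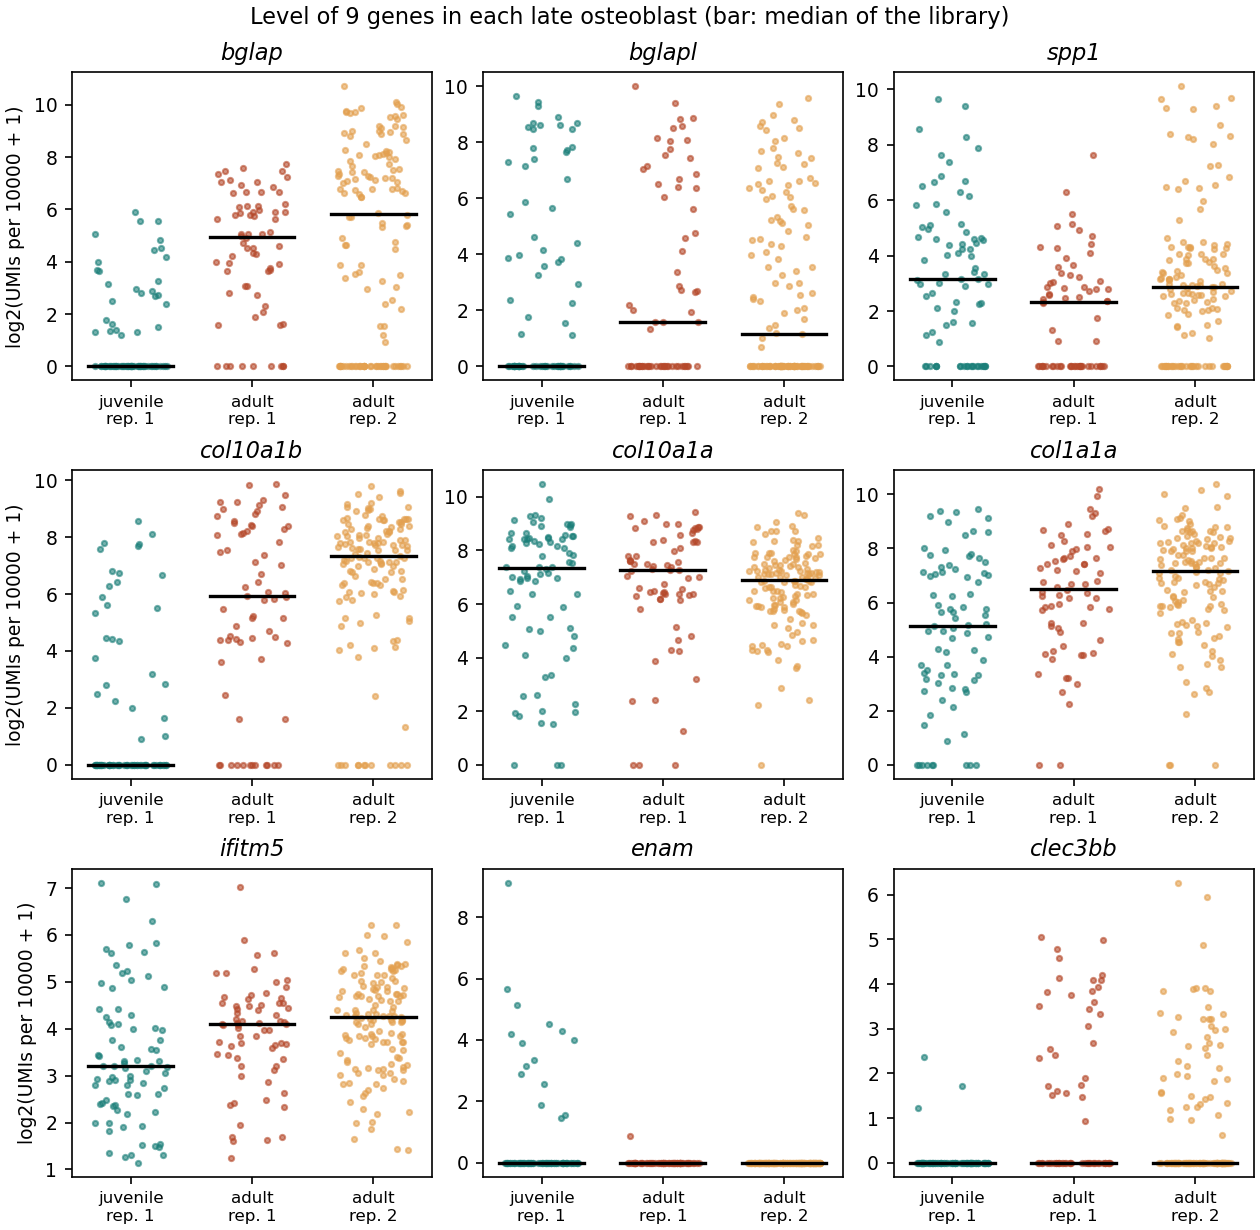
Level of 9 genes, log2(UMIs per 10000 UMIs of the cell + 1), in each late osteoblast of 3 libraries, where a point is a cell and the bar is the median. For *bglap* and *col10a1b* the juvenile median lies at 0 and both adult medians lie above it, *col10a1a* has similar medians in all 3, and 15 of the 16 cells with *enam* are juvenile.

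Across the cells of a library, levels on this log2 scale were compared as a description, since cells of a library share their RNA pool and differ in depth. Members had 513 to 16668 UMIs in juvenile replicate 1, 524 to 12398 in adult replicate 1 and 508 to 18953 in adult replicate 2. What part depth had in the correlations was not tested. Among 516 genes found in at least 30% of the members of every library, *bhmt*, a betaine-homocysteine methyltransferase, was the one whose correlation with *bglap* was highest at its lowest library (r = 0.55, 0.57 and 0.70 over 80, 68 and 134 cells). *bglapl* followed with r = 0.60, 0.44 and 0.51, *serpinf1* with 0.45, 0.41 and 0.49, and *sparc* with 0.50, 0.38 and 0.55. *ptmab* went the other way with r = -0.46, -0.48 and -0.28. The type I collagen genes *col1a1a* and *col1a2* moved together (r = 0.92, 0.94 and 0.92), and *col10a1a* and *col10a1b* less so (r = 0.39, 0.54 and 0.55). *spp1* and *bglap* had r = 0.15, 0.08 and -0.23, so the 2 genes had no shared direction over the libraries.

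The share of late osteoblasts among kept cells was compared between stages. It was 0.962% in juvenile replicate 1 (95% confidence limits of 0.764 and 1.196% by the exact Clopper-Pearson method), 3.28% in adult replicate 1 (2.56 to 4.14%) and 4.48% in adult replicate 2 (3.76 to 5.28%). In juvenile replicate 2 it was 0 of 7932 cells, and only 8 cells had any *ifitm5*. A limit of 3 counts allows a share of up to 0.0378% there, and the Clopper-Pearson upper limit is 0.0465%. These intervals cover counting error only. The mean was 3.88 ± 0.844% in adults and 0.481 ± 0.680% in juveniles (SD, n = 2 libraries each), a difference of 3.40 percentage points. An exact two-sided permutation test gave p = 0.333, the smallest that 2 against 2 libraries allow. Between the libraries of the same ecadYFP gate the difference was 2.32 points, or 3.41-fold. Juvenile replicate 2 was of the same stage as juvenile replicate 1, which stood at 0.962%, and differed from it in the sp7:GFP gate. Its 0 lowers the juvenile mean, and what part the gate had in it was not tested.

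With another denominator juvenile replicate 1 was not below both adult libraries. Of late osteoblasts, pre-osteoblasts (cells with 2 or more UMIs of *mmp13b* and with *spp1*) and mesenchyme together, late osteoblasts made up 80 of 459 cells in juvenile replicate 1 (17.4%, interval 14.1 to 21.2%), 68 of 469 in adult replicate 1 (14.5%, 11.4 to 18.0%) and 134 of 582 in adult replicate 2 (23.0%, 19.7 to 26.7%). The juvenile value lay between the adult ones, and within the ecadYFP gate the adult library was 2.93 points lower. In juvenile replicate 2 it was 0 of 270 cells, which allows up to 1.11% by 3 counts and 1.36% by Clopper-Pearson. With that library the mean difference between the stages was 10.05 points.

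**Figure D3:**
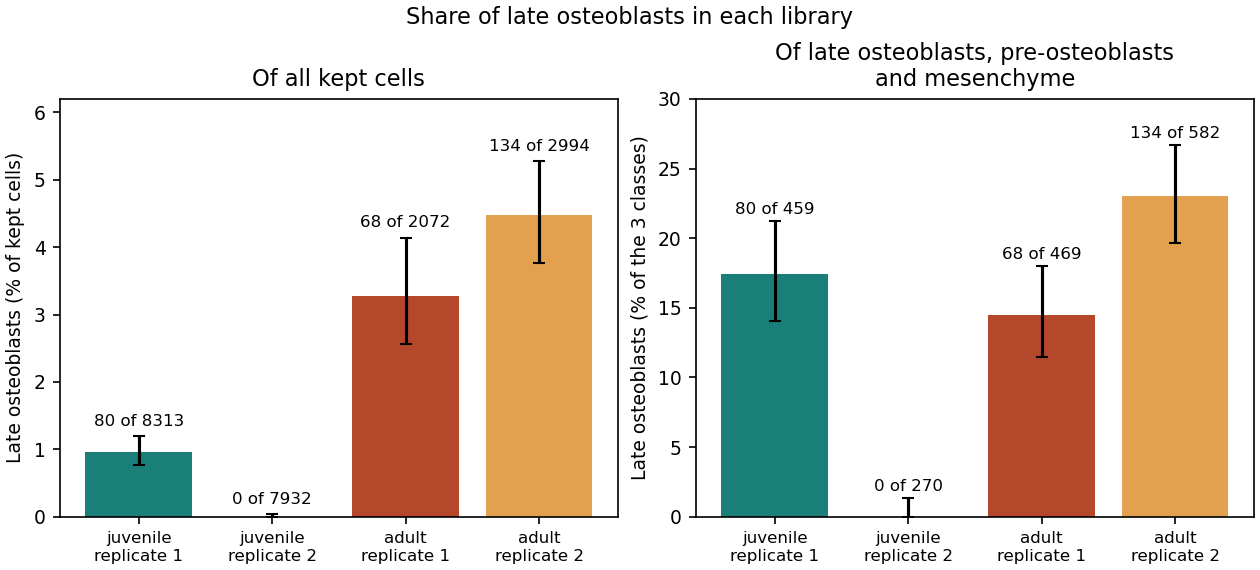
Share of late osteoblasts in each library (bars, with exact 95% Clopper-Pearson intervals that cover counting error only), in percent of all kept cells (left) and of late osteoblasts, pre-osteoblasts and mesenchyme together (right). On the left both adult libraries lie above juvenile replicate 1, on the right juvenile replicate 1 lies between them, and juvenile replicate 2, depleted of sp7:GFP cells, is at 0 in both.

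Gene levels in late osteoblasts were compared between stages on UMIs summed per library, with edgeR's quasi-likelihood test and Benjamini-Hochberg adjustment over 3552 genes. Juvenile replicate 2 has no members, so 1 juvenile library stood against 2 adult ones, and the juvenile library was assumed to vary as the adult libraries do. At an adjusted p under 0.05, 47 genes (1.32%) were higher and 83 (2.34%) lower in adults, 130 (3.66%) in all. The median log2 fold change over all genes was 0.03 with TMM scaling and -0.18 with library totals. With TMM scaling 1833 of the 3552 genes had a positive log2 fold change, the share against which the positive counts by gene group below are to be read. Among the called genes, 29 of the higher ones had both adult libraries above the juvenile one, and all lower ones had them below it. The share of all 3552 genes with such an order is not given here. With 1 juvenile library such an order is easily reached, so it is no measure of agreement between replicates. In the library with the highest level, a single cell held 50% or more of that library's UMIs for 20 of the higher and 24 of the lower genes. DESeq2 called 13 and 25 genes, among them 4 of the 47 higher (*clec3bb*, *hspb1*, *loxa* and *hsp90aa1.2*) and 25 of the 83 lower ones. With the top cell of each gene left out in each library, an alternative chosen after seeing the data, 34 genes were higher and 67 lower, of which 24 and 58 were among those first called.

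**Figure D4:**
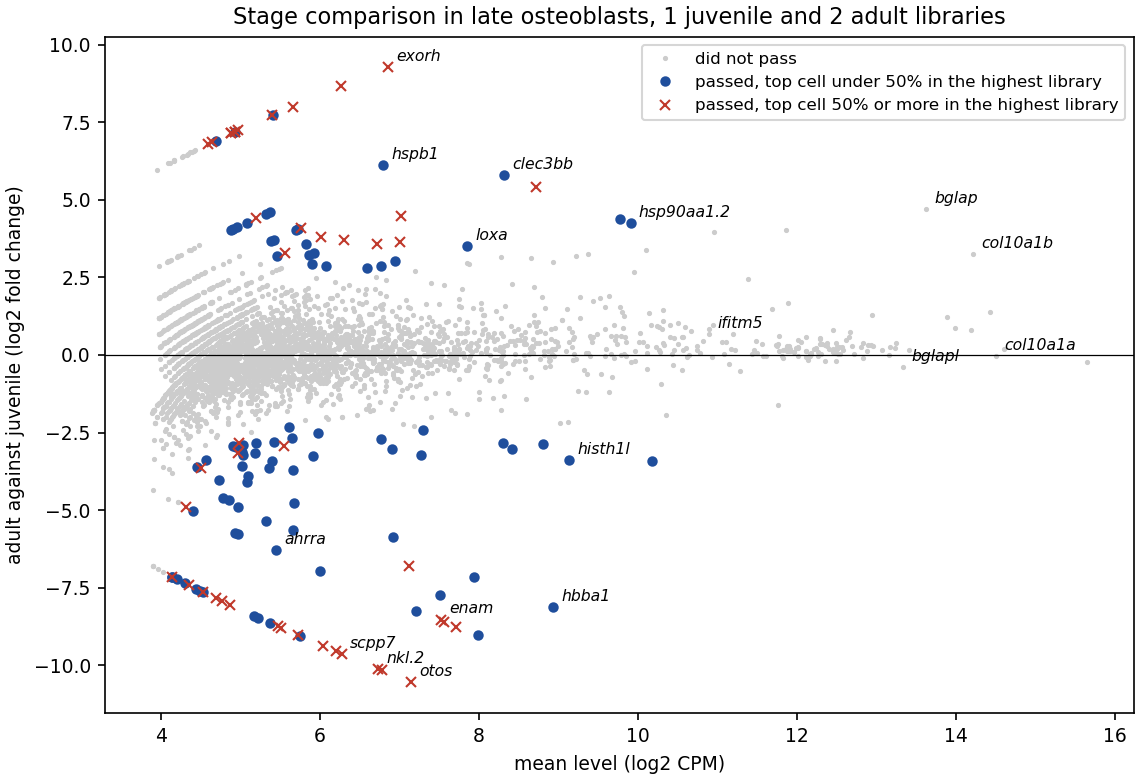
Log2 fold change of adult against juvenile late osteoblasts (vertical) against mean level (log2 CPM, horizontal) for the 3552 genes tested with edgeR. Blue points and red crosses passed at an adjusted p under 0.05, and crosses mark the 44 genes with 50% or more of the UMIs of their highest library in 1 cell, *exorh*, *otos* and *nkl.2* among them, while *bglap* and *col10a1b* did not pass.

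*clec3bb* and *hspb1* were the genes higher in adults that also passed in each alternative fit run. In the fit without the top cells *hspb1* lost its only juvenile UMI, and its log2 fold change went from 6.12 to 9.15. *clec3bb* is a homologue of tetranectin, a secreted C-type lectin. It stood at 8.52 CPM in juvenile replicate 1 (3 of 80 cells), 680 CPM in adult replicate 1 (29 of 68 cells) and 244 CPM in adult replicate 2 (47 of 134 cells). The log2 fold change was 5.81 (SE 1.26, edgeR adjusted p = 3.29e-04). In the remaining cells *clec3bb* stood at 1.42, 5.81 and 7.11 CPM.

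*loxa*, a lysyl oxidase that crosslinks collagen, rose as well. It stood at 29.8 CPM in the juvenile library (9 cells) and 257 and 307 CPM in the adult ones (21 and 61 cells), a log2 fold change of 3.51 (SE 1.01, edgeR adjusted p = 0.0191), and at an adjusted p of 0.0549 without the filter on low counts. *col14a1b*, a fibril-associated collagen, stood at 19.2, 191 and 66.8 CPM (log2 fold change 2.81, SE 0.89, edgeR adjusted p = 0.0417) and did not pass with DESeq2 (adjusted p = 0.741). *qpct*, a glutaminyl cyclase, stood at 4.26, 53.3 and 68.2 CPM (log2 fold change 4.04, SE 1.04, edgeR adjusted p = 0.00508), and not with DESeq2 (adjusted p = 0.608). *aqp3b*, a water and glycerol channel, stood at 8.52, 87.7 and 61.1 CPM and *zgc:110699* at 2.13, 43.9 and 27.0 CPM, and both passed with edgeR but not with DESeq2.

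Some heat shock genes also rose, and in the remaining cells their levels were likewise lowest in the juvenile library. *hspb1*, a small heat shock protein, stood at 2.13, 235 and 82.4 CPM in late osteoblasts (log2 fold change 6.12, SE 1.204, edgeR adjusted p = 3.67e-05) and at 23.7, 171 and 564 CPM in the remaining cells. *hsp90aa1.2* stood at 76.7, 2046 and 722 CPM (log2 fold change 4.26, SE 1.28, edgeR adjusted p = 0.0278), with 312, 3219 and 2381 CPM in the remaining cells, and lost the call without the filter on low counts (adjusted p = 0.0827). *hsp70.3*, whose near-identical copies make its count uncertain, stood at 194, 2393 and 2677 CPM and did not pass (edgeR adjusted p = 0.0921), although it did with DESeq2, with library totals and without its top cells. Of the 21 immediate early and stress genes tested 1 was higher (3 with DESeq2), with a median log2 fold change of 0.80 against 0.03 for all genes.

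The other higher genes with the largest fold changes were low or uneven. *cyp24a1*, the enzyme that breaks down active vitamin D, had 0 UMIs in the juvenile library, 23 in 5 cells of adult replicate 1 and 9 in 3 cells of adult replicate 2 (edgeR adjusted p = 0.00183), and did not pass without its top cells (adjusted p = 0.376). *npb* had its 12 UMIs of adult replicate 1 in 1 cell. *rn7sk*, the 7SK small nuclear RNA, stood at 63.9, 135 and 1766 CPM and *RF00009* at 2.13, 12.5 and 66.8 CPM, both highest in adult replicate 2. *tgfb2l* had a UMI in 1, 14 and 11 cells. *si:ch1073-441p17.1*, *XLOC_044275* and *si:dkey-79d12.5* were the remaining ones. Of the 20 higher genes held by 1 cell, 14 were held by the same cell of adult replicate 1. That cell had 7241 UMIs, 1 of *ifitm5* and 1 of *col10a1a*, and expressed *exorh* (a pineal opsin), *asmt* (the last enzyme of melatonin synthesis), *rcvrnb* and *saga*, so it goes against its label.

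Among the genes lower in adults was *enam*, which encodes enamelin, a secreted phosphoprotein known in mammals from tooth enamel. *enam* had 263 UMIs in 15 of 80 juvenile members, 1 UMI in 1 cell of adult replicate 1 and 0 in adult replicate 2, a log2 fold change of -8.53 (SE 1.09, edgeR adjusted p = 2.88e-12). One cell held 53.2% of the UMIs. Leaving out the top cell of each library kept the call, but it also removed the only adult UMI. In the remaining cells *enam* stood at 0.994, 2.91 and 0 CPM. Of the 15 juvenile cells 14 had 2 or more UMIs, 13 had *spp1*, 9 *bglapl* and 7 *bglap*. *scpp7*, another secretory calcium-binding phosphoprotein gene, had 107 UMIs in 5 juvenile cells and none in adults (log2 fold change -9.63, SE 1.22, edgeR adjusted p = 2.87e-12), with 81.3% of them in 1 cell, and all 5 cells had *enam*. The same juvenile cell held the largest part of the UMIs of both *enam* and *scpp7*, so the 2 calls are not separate. Adult cells outside the members did have *scpp7*. In the remaining cells it stood at 0.284, 17.1 and 0.142 CPM, and in adult replicate 1 it was found in 0.0998% of them. In the GRCz12tu gene order *enam*, *scpp5*, *scpp7* and *ambn* follow each other, and *scpp5* and *ambn* had no UMI in the members.

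*histh1l*, *h1fx* and *h1f0*, which encode linker histones and are named here after their values were seen, were called lower by edgeR and not by DESeq2 (adjusted p = 1, 0.120 and 0.861). *histh1l* stood at 1473 CPM in juvenile replicate 1 and 25.1 and 178 CPM in the adult libraries (log2 fold change -3.38, SE 0.91, edgeR adjusted p = 0.00946). *h1fx* stood at 859, 50.1 and 111 CPM (log2 fold change -3.04) and *h1f0* at 292, 3.13 and 45.5 CPM (log2 fold change -3.02). The remaining cells of the same libraries had 846, 43.3 and 166 CPM of *histh1l*. They had 1130, 121 and 331 CPM of *h1fx* and 332, 14.4 and 53.2 CPM of *h1f0*, both above the members in each library. *ctgfa*, a matricellular growth factor gene, stood at 771, 122 and 69.6 CPM (edgeR adjusted p = 0.0237), and lost the call with DESeq2 (adjusted p = 0.0787), without the filter on low counts (0.0633) and without members with cartilage UMIs (0.131). *XLOC_041870* stood at 1100, 157 and 105 CPM (log2 fold change -2.88, SE 0.88, edgeR adjusted p = 0.0311), and lost the call without the filter (adjusted p = 0.0881). *ahrra* and *cyp1a*, targets of the aryl hydrocarbon receptor, had 56 and 46 UMIs in the juvenile members and 1 and 0 in the adult ones, and mesenchyme showed the same direction.

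Besides *scpp7*, the largest decreases included genes of other cell types. *otos*, *cnmd*, *col9a1a*, *col9a3*, *ucmab* and *col9a2* are cartilage genes. *otos* had 202 UMIs in 12 juvenile members with 74.3% in 1 cell, and 0 in adults. The summed level of 14 cartilage markers was 2374 CPM in juvenile replicate 1 and 229 and 28.4 CPM in adults, against 7571, 2209 and 589 CPM in the remaining cells. Of the 11 tested, 9 were lower and 1 (*hapln1a*) higher, and a cell with 373 cartilage UMIs held 9 of the genes called. *hapln1a* stood at 6.39, 194 and 5.68 CPM and thus made up most of the sum of adult replicate 1. One cell held 72.6% of its UMIs in that library, and DESeq2 did not call it. Leaving out members with any UMI of *acana*, *matn1*, *snorc*, *ucmab* or *col2a1a*, chosen after seeing the data, gave 38 higher and 45 lower genes, of which 27 and 40 had been called before. *nkl.2* (NK-lysin, of lymphocytes) had 92.0% of its 150 UMIs in 1 cell, and *or115-5* is an olfactory receptor gene.

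The globins *hbba1* (711, 4 and 0 UMIs) and *hbaa1* (350, 3 and 1) and the near-identical globin gene *si:ch211-5k11.8* (369, 1 and 0) were lower too, and how reads were divided between these copies is uncertain. DESeq2 called *hbaa1* and *si:ch211-5k11.8* but not *hbba1*. *hbba1* was found in 79 of 80 juvenile members, and the remaining cells of that library had 28430 CPM. The summed red cell markers stood at 2265, 28.2 and 1.42 CPM in members and at 46410, 996 and 2.42 CPM in the remaining cells. Neuronal markers summed to 254, 34.5 and 4.26 CPM in members and 1502, 252 and 51.9 CPM in the remaining cells. Among them *elavl3* and *fabp7a* were called lower by edgeR and not by DESeq2. *fabp7a* also lost the call with library totals, and *elavl3* without its top cells. Immune markers summed to 205, 141 and 22.7 CPM. What part RNA of other cells had in these calls was not tested. The counts that follow are given without their share over all genes tested, so they do not set the called genes apart. For 51 of the 83 lower genes the remaining juvenile cells were at or above the level of the members, and so they were in the adult library with the highest level for 23 of the 47 higher genes.

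**Figure D5:**
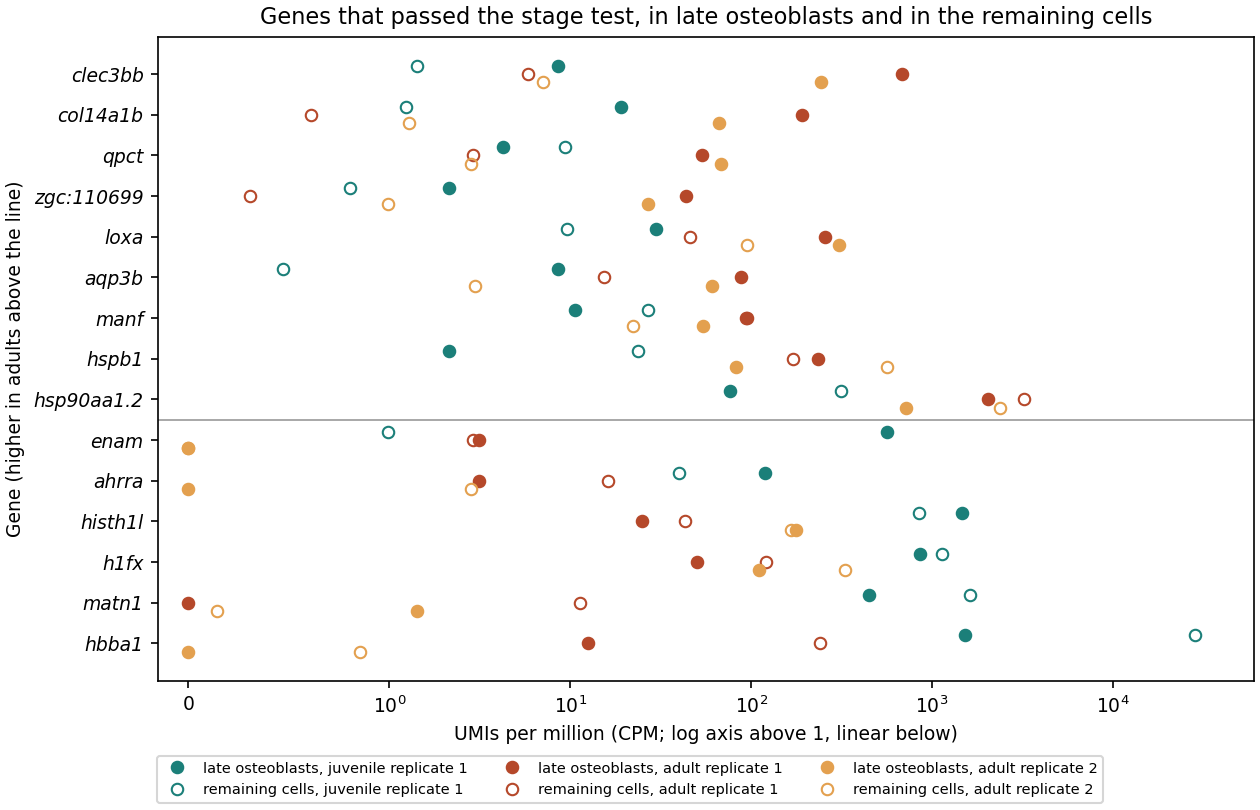
Level (CPM, log axis above 1 and linear below) of 15 genes that passed the stage test, in late osteoblasts (filled) and in the remaining cells (open) of 3 libraries. For *clec3bb*, *col14a1b* and *enam* the remaining cells of the high libraries lie far below the members, while for *hspb1*, *hsp90aa1.2*, *matn1* and *hbba1* they are as high or higher in at least 1 library.

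Most bone genes did not pass the stage test, and neither did most of the 3552 genes tested, of which 130 (3.66%) passed. In simulated data the fit found 1.0% of 4-fold changes, so a gene that did not pass is not shown to be unchanged. *bglap* differed widely, with 763, 5861 and 23470 CPM, a log2 fold change of 4.69 (SE 1.89) and an edgeR adjusted p of 0.231. It passed with library totals (adjusted p = 4.04e-15) and with DESeq2 (adjusted p = 3.88e-04), so its call depends on the fit. *col10a1b* had a log2 fold change of 3.25 (SE 1.85, edgeR adjusted p = 0.638) and passed with library totals (adjusted p = 4.42e-10) and with DESeq2 (adjusted p = 0.00368). *serpinh1b* had 2.67 (SE 1.17, edgeR adjusted p = 0.302) and passed with library totals (adjusted p = 0.0089) and with DESeq2 (adjusted p = 0.0494). *spp1* stood at 6014, 1334 and 6377 CPM and differed more between the adult libraries than between stages (log2 fold change -0.20, SE 1.26, edgeR adjusted p = 0.997). *wif1*, a secreted WNT inhibitor, stood at 70.32, 18.8 and 5.68 CPM (log2 fold change -2.47, SE 0.80, edgeR adjusted p = 0.0567).

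By gene group, 0 of 11 bone collagens tested passed in either direction at an adjusted p under 0.05 (edgeR), 8 of 11 had a positive log2 fold change, and their median was 0.94 against 0.03 for all genes; 0 had an unadjusted p under 0.05, and 1 (*col10a1b*) was higher with DESeq2. Of 15 noncollagenous matrix genes 0 were higher and 2 lower (*scpp7* and *fmoda*), of 11 mineral and phosphate genes 1 was higher (*cyp24a1*), and DESeq2 kept the call of *scpp7* (adjusted p = 4.27e-04) but not those of *fmoda* (0.371) and *cyp24a1* (0.554). Of 23 collagen-processing genes 0 passed, with 19 positive and a median of 0.79, where 1 had an unadjusted p under 0.05 and 1 (*serpinh1b*) was higher with DESeq2. Of 30 secretory genes 1 was higher (*manf*, 10.7, 94.0 and 54.0 CPM, DESeq2 adjusted p = 0.985), 26 were positive and the median was 0.60. Of 19 transcription factors, 19 BMP and TGF-beta genes, 8 WNT, hedgehog and PTH genes and 9 genes of osteoclast coupling and osteocytes, 0 passed, with medians of -0.51, -0.04, -0.60 and 0.27, and 0, 0, 4 and 0 of them had an unadjusted p under 0.05, with 0 called by DESeq2. Of 7 markers of earlier osteoblasts 1 was lower (*hyal4*, with 91.3% of its juvenile UMIs in 1 cell), and of 4 cell cycle genes 1 was lower (*stmn1a*), and neither was called by DESeq2 (adjusted p = 1 for both). Of the markers of other cells, 0 of 6 for mesenchyme, 0 of 4 immune, 0 of 3 osteoclast, 0 of 2 epithelial and 0 of 2 endothelial or smooth muscle ones passed with edgeR or DESeq2, and 1, 2, 0, 0 and 2 of them had an unadjusted p under 0.05. Over all 3552 genes tested, 353 had an unadjusted p under 0.05 and 130 (3.66%) passed with edgeR. The counts by group are to be read against these shares, and the groups are small.

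Whether a stage difference was also seen in mesenchyme of the same libraries was tested by the cell type by stage term, with the library as a block. Of 7881 genes, 3 (0.0381%) had a higher and 9 (0.114%) a lower adult-to-juvenile difference in late osteoblasts than in mesenchyme, 12 (0.152%) in all. With library totals the split was 6 and 41. *col11a2*, a fibrillar collagen chain of bone and cartilage, was one of the higher ones. It stood at 872, 1453 and 1409 CPM in late osteoblasts and at 25.7, 2.44 and 4.88 CPM in mesenchyme, a difference of 3.63 on the log2 scale (SE 0.57, edgeR adjusted p = 0.0148). The log2 fold change of *col11a2* between stages was 0.96 in late osteoblasts and -2.61 in mesenchyme, and neither passed. In the remaining cells *col11a2* stood at 378, 11.6 and 11.5 CPM. The other higher ones were the rule genes *bglapl* and *col10a1a*, which chose the cells.

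*ptgdsb.1*, a lipocalin-type prostaglandin D synthase gene, had the smallest p. It stood at 3084 CPM in juvenile late osteoblasts and at 175 and 284 CPM in adult ones, and at 3437, 3938 and 5755 CPM in mesenchyme, a difference of -4.13 (SE 0.33, edgeR adjusted p = 8.76e-06). A single cell held 41.6% of its juvenile UMIs. In the remaining cells it stood at 1202, 3547 and 3425 CPM. Of the genes called between stages in late osteoblasts, 40 of the higher and 71 of the lower ones could be tested in mesenchyme, where 2 and 31 passed in the same direction and 0 in the opposite one. Over all 8992 genes tested in mesenchyme, 69 (0.767%) were higher and 100 (1.11%) lower in adults, and both comparisons use the same libraries.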

How the data were processed

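The deposited tables hold UMI counts per gene and barcode, which the authors made from 10x 3′ v2 libraries with Cell Ranger (3.0.0 in the protocol, 3.1.0 in the table header) on GRCz11; no source used here states the annotation. The submitters' processing notes also name Seurat 4.1.1. Of 39988 genes, the 106 repeated symbols were kept apart by identifier. Replicate numbers follow accession order. No doublet caller was run.

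UMIs of the members were summed per library (at least 10 members). edgeR 4.0.16 (limma 3.58.1, R 4.3.3) with TMM, filterByExpr and quasi-likelihood tests gave stage and cell type by stage terms, and DESeq2 1.42.0 was an alternative. Tested on simulated data with 200 changed genes, the stage fit found 1.0% of 4-fold, 60.0% of 16-fold and 78.5% of 64-fold changes, and the interaction fit 2.5%, 13.0% and 67.0%. Intervals are exact Clopper-Pearson, for counting error only. A share of 0 is limited by 3 counts.

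Members, lists and tests were chosen with earlier results of these data known. Named genes are the rule genes, the 25 leading ones (50 or more UMIs), up to 10 per direction with the largest stage change (20 or more UMIs, libraries not overlapping), and from each list the 5 highest and all that passed; others were named after their values were seen. 1 leading gene is not reported here. The reference at hand is GRCz12tu, used for gene order only. Alternatives were scaling, filter, tool, member rule, cells left out, block and denominator.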

Additional observations from a re-analysis of the deposited data

Results flagged for a closer look

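For 10 genes outside the rule the adult-to-juvenile log2 difference in late osteoblasts differed from that in mesenchyme of the same libraries, by the interaction term in edgeR (1 juvenile and 2 adult libraries). The difference of differences was 3.63 for *col11a2*, -4.13 for *ptgdsb.1* and -3.23 for *ptgdsb.2*. It was -10.03 for *col9a1a* and -9.14 for *cnmd*, cartilage genes of which 1 juvenile member held 51.5% and 53.5% of the UMIs. For *gyg1b* it was -3.22, with 92.0% of its juvenile UMIs in 1 cell. It was -1.77 for *ifitm1*, -3.05 for *krt4*, -5.48 for *CR318588.1* and -5.34 for *XLOC_026836*. In the same order, the top juvenile cell of each gene held 30.8%, 48.7%, 57.1% and 26.3% of its juvenile UMIs. The same juvenile cell held 41.6% of those of *ptgdsb.1* and 47.8% of those of *ptgdsb.2*. In late osteoblasts *ptgdsb.2* stood at 1939, 1880 and 185 CPM, so adult replicate 1 was near the juvenile library. For each of the 9 genes with a negative difference the level in mesenchyme was above that in late osteoblasts in both adult libraries, and what part RNA of other cells had in the members was not tested.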

How the results depend on the processing

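The adult excess in the share of late osteoblasts was 3.40 percentage points, and 10.05 with late osteoblasts, pre-osteoblasts and mesenchyme as the denominator. Both values take in the 0 of juvenile replicate 2, which was depleted of sp7:GFP cells. With that denominator juvenile replicate 1 stood at 17.4%, between the adult libraries at 14.5% and 23.0%. The excess was 2.32 points within the ecadYFP gate (-2.93 with both), and 2.80 to 3.99 with 1 library left out. The 47 genes higher and 83 lower in adults became 29 and 65 with library totals, among them only 16 of the 47 and 58 of the 83. With DESeq2, which gave an adjusted p for 3276 of 3552 genes, they became 13 and 25 (4 of the 47 and 25 of the 83 among them). The counts were 27 and 77 without the filter on low counts and 24 and 67 with 2 or more UMIs of *ifitm5*. Without members with cartilage UMIs they were 38 and 45. The 12 interaction genes became 47 with library totals, 42 without the filter and 0 without the library block, where 156 genes had an unadjusted p under 0.05 with edgeR. Beyond the library block, no paired analysis was possible because the labels give no replicate numbers. Leaving out a library was not run for the stage and interaction tests, since 2 libraries leave no spread to test against. No gene that the report names as called changed sign in these fits. In simulated data the stage fit found 1.0% of 4-fold changes. The genes changed there left out the lowest ones and the depth was not varied, so the effect of depth was not tested.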
